A study of Mus musculus with 10 samples.

Results

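Of the 10 arrays of this series, 4 carried a low and 6 a high signal for 18S ribosomal RNA, and the transcripts of these sets of arrays were compared. The members were chosen by a measured value, the deposited intensity of the control probe set for the middle of mouse 18S rRNA on each array, with arrays over 1000 called high and the others low. Replicates 1, 3 and 5 of either surgery were high and replicates 2 and 4 low, so each surgery group held 3 high and 2 low arrays. The RNA came from C57Bl/6 mice, 8 to 12 weeks of age, whose CD4+ spleen cells were read with 1 array per mouse. Of these mice, 5, numbered CLP 1 to 5, had the cecum tied off and punctured, a model of polymicrobial abdominal sepsis. Another 5, sham 1 to 5, had the cecum brought out and handled through the same opening of the abdomen under the same halothane anaesthesia. Spleens were taken 6 h after surgery, and magnetic removal of other cells left about 91% CD4+ cells, per the labels. All groups shared strain, age range, RNA columns and labelling, in which a small RNA sample is copied in 2 rounds before it is hybridised to an Affymetrix array. The titles call each sham array replicate 1, and a suffix from 1 to 5 served as its number. No label names a batch, chip lot or date that would set the low arrays apart.

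A ribosomal RNA is the most abundant kind of RNA in a cell, carries no poly(A) tail in its mature form, and is copied poorly when labelling starts from an oligo(dT) primer. Malat1 is a long noncoding RNA kept in nuclear speckles, and some messenger RNAs also stay in the nucleus while introns remain in them. Mitochondrial and ribosomal protein messages are short and abundant in T cells. Arrays of this kind read a gene through 1 or several probe sets, each covering a short stretch, mostly near the 3′ end of a transcript.

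The middle 18S probe set chose the classes, so its values are given as a description. The low arrays read 268 (CLP 2), 228 (CLP 4), 194 (sham 2) and 234 (sham 4), a mean of 231 ± 30.4 (SD, n = 4). The high arrays read 3420, 4436 and 3134 in CLP 1, 3 and 5 and 3223, 3789 and 5178 in sham 1, 3 and 5, a mean of 3864 ± 800 (SD, n = 6). No array lay near the dividing value: the nearest were CLP 2 at 268 below it and CLP 5 at 3134 above it. The ratio of the class means was 16.7. The probe sets for the 5′ and 3′ parts of 18S rRNA ordered the arrays into the same classes, at 78.5 to 138 against 356 to 1579 for the 5′ part and 343 to 505 against 742 to 1414 for the 3′ part. Their class means differed 8.28-fold and 2.52-fold.

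**Figure D1:**
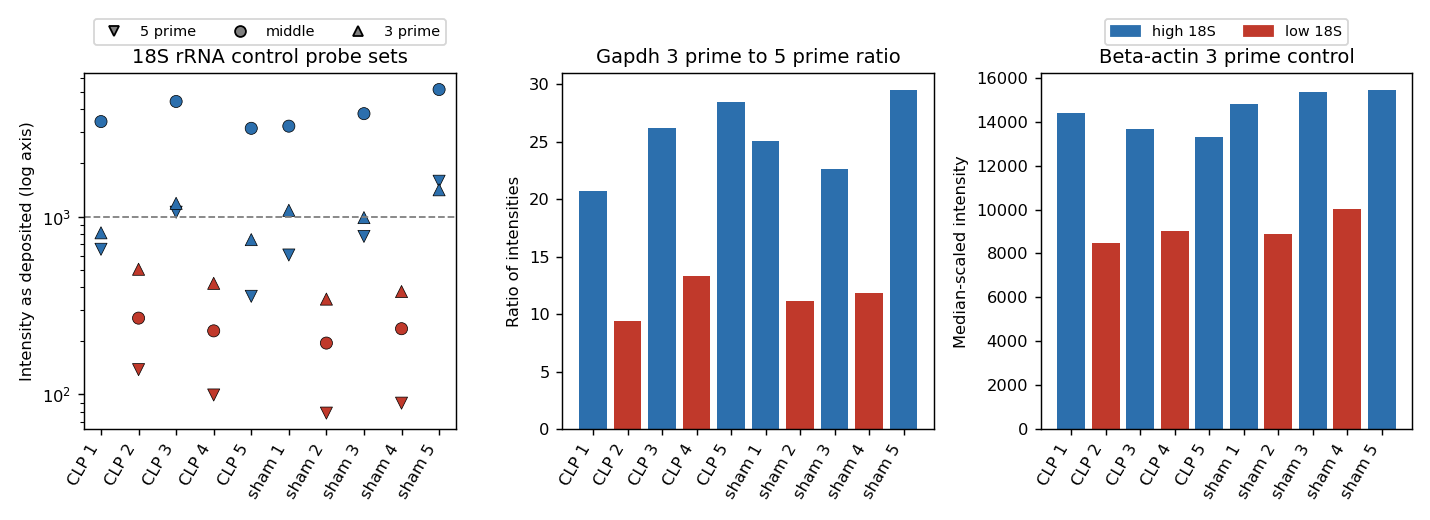
Left, deposited intensity (log axis) of the 5′, middle and 3′ 18S rRNA control probe sets on each of the 10 arrays, with the dividing value of 1000 dashed; centre, the Gapdh 3′ to 5′ ratio; right, the median-scaled intensity of the β-actin 3′ control. Blue marks high and red low 18S arrays: the low arrays have Gapdh ratios of 9.45 to 13.4, below the 20.7 to 29.5 of the high arrays, and a lower β-actin signal.

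Other control probe sets also separated the classes. The Gapdh 3′ to 5′ ratio compares signal at the ends of the message of a glycolytic enzyme and is a usual check of how far the labelled copies reach. It was 9.45 (CLP 2), 13.4 (CLP 4), 11.2 (sham 2) and 11.8 (sham 4) in low arrays, and 20.7, 26.2 and 28.5 (CLP 1, 3 and 5) and 25.1, 22.6 and 29.5 (sham 1, 3 and 5) in high arrays. The classes did not overlap, with means of 11.5 ± 1.62 (SD, n = 4) and 25.4 ± 3.36 (SD, n = 6). An exact two-sided permutation of the class labels within each surgery group gave p = 0.01, the smallest its 100 arrangements allow, and 0.038 adjusted over the 19 array measures compared. It moves the labels of each surgery group separately, although the low arrays are numbers 2 and 4 in both. If arrays of the same number were handled together, fewer arrangements would apply. The 5′ signal of Gapdh was higher in low arrays, at 243 ± 99.3 against 126 ± 18.7 and without overlap (exact permutation p = 0.01, adjusted 0.038), while the 3′ signal was 2683 against 3173 (p = 0.16, exact permutation).

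The β-actin controls, which read a cytoskeletal message, showed another pattern. The 3′ signal was 9110 ± 658 in low and 14492 ± 877 in high arrays, and the middle signal 3363 against 6162 (exact permutation p = 0.01 and adjusted p = 0.038 for each). The β-actin 3′ to 5′ ratio was 8.67 in low and 8.85 in high arrays (exact permutation p = 0.9). The β-actin 3′ to middle ratio was 2.72 in low and 2.38 in high arrays (exact permutation p = 0.05, adjusted 0.119), while that of Gapdh was 2.43 and 2.87 (exact permutation p = 0.03, adjusted 0.0814). The B1 and B2 repeat controls read 3466 against 3670 and 15458 against 15280 (exact permutation p = 0.63 and 0.67). The hybridisation controls, bacterial and phage RNAs added to each sample, gave exact permutation p-values of 0.35, 0.49, 0.23 and 0.85 for BioB, BioC, BioD and Cre. The share of probe sets at or under the floor used here was 24.4% in low and 25.3% in high arrays (exact permutation p = 0.01, adjusted 0.038).

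Deposited intensities ran from 0 to 20290, and array medians lay between 127.6 and 142.4, with class means of 132.1 (low) and 135.2 (high). All arrays were brought to one median before genes were compared, and how many arrays there are limits the precision of what follows. The first principal component of the tested probe sets took 37.0% of the variance and placed the low arrays between 20.5 and 38.4 and the high arrays between -37.9 and -10.9. The second took 18.6% and placed the sham arrays between 10.2 and 20.6. The CLP arrays lay between -28.6 and -7.88 on it, except CLP 4 at 8.52.

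**Figure D2:**
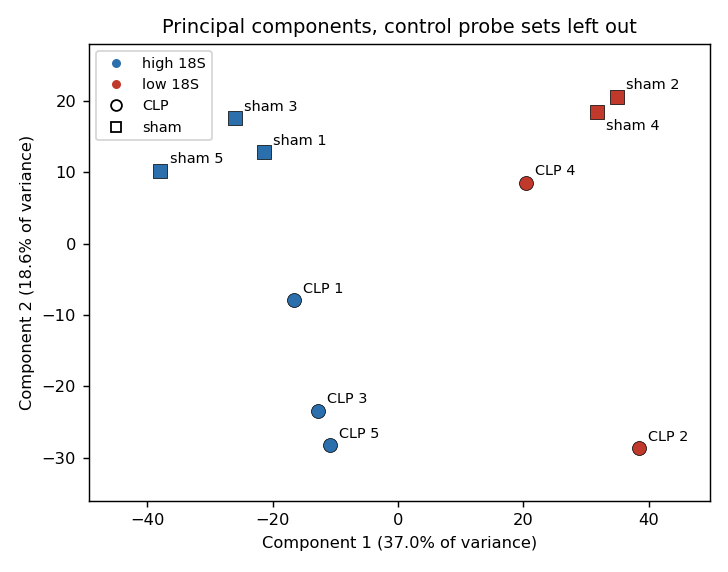
Position of the 10 arrays on the first (37.0% of variance) and second (18.6%) principal components, in units of the component score; circles are CLP and squares sham arrays, red low and blue high 18S. The 4 low arrays lie between 20.5 and 38.4 on the first component and the 6 high arrays between -37.9 and -10.9.

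In low arrays 1205 genes were lower and 697 higher than in high arrays, among 13073 genes tested. That is 9.22% and 5.33% of the genes, or 14.5% either way, by limma with surgery as a covariate and a Benjamini-Hochberg adjusted p under 0.05. A gene is represented by its brightest tested probe set. Since the classes were drawn from signal on the same arrays, these p-values describe how far the arrays separate and no treatment. The difference was at least 2-fold for 65 of the lower genes (0.497% of those tested) and 13 of the higher (0.0994%). All 4 low arrays lay below all 6 high arrays for 958 genes (7.33%) and above them for 541 (4.14%). The median over all genes was -0.00068 on the log2 scale (low minus high).

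The balance of directions depended on the scaling. Of the genes called, 63.4% were lower in low arrays with median scaling, 72.6% with no scaling (1548 lower, 585 higher), 52.1% with quantile normalization (1037 and 954) and 47.9% with arrays scaled to their 75th percentile (942 and 1023). The counts also rested on single sham arrays. They were 535 lower and 280 higher without sham 2, 664 and 277 without sham 4, and 813 and 449 without sham 3. Without CLP 2 they were 1133 and 585, and without CLP 4 1253 and 943. Counts of list members with an array left out, given below, are to be read beside these, since the calls over all genes move too. Levels mattered as well: among the dimmest 4358 genes 2.8% were lower and 3.42% higher, among the middle 4357 genes 8.72% and 4.75%, and among the brightest 4358 genes 16.1% and 7.82%.

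The CLP and the sham mice each gave their own low minus high difference, from arrays of separate mice. Across the 13073 genes these differences had a Pearson r of 0.708 and a Spearman coefficient of 0.664, a description only, since genes on an array are not independent. Among 956 genes that were lower by at least 0.5 on the log2 scale in sham arrays, 921 (96.3%) had the same sign in CLP arrays. Against this, 52.2% of all genes were lower in CLP arrays. At that size or beyond, 383 genes were lower in both, 40.1% of the sham and 72.1% of the CLP genes. Among 636 genes higher by 0.5 or more in sham arrays, 574 (90.3%) had the same sign in CLP arrays, against 47.8% of all genes. Tested alone by limma, the sham arrays gave 742 lower and 435 higher genes, and the CLP arrays 10 and 1.

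**Figure D3:**
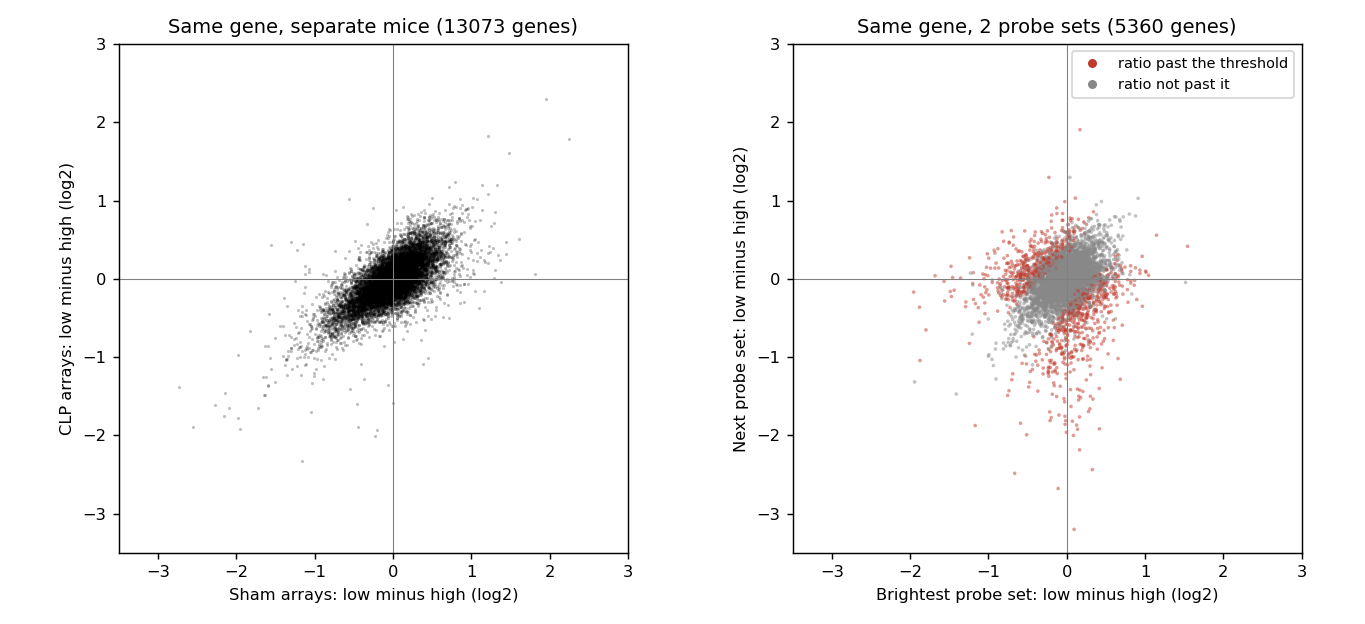
Left, low minus high difference (log2) of 13073 genes in sham arrays (x axis) and in CLP arrays (y axis), which share no mouse; Pearson r is 0.708. Right, the same difference for the brightest (x axis) and next brightest (y axis) tested probe set of 5360 genes, with Pearson r of 0.223; red marks 1027 genes whose ratio of these probe sets differed between the classes.

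Malat1 was lower in low arrays through 5 of its 7 tested probe sets, by amounts from 2.25-fold to 9.67-fold. Its brightest probe set read 1966 (CLP 2), 7127 (CLP 4), 2978 (sham 2) and 4633 (sham 4) in low arrays. The high arrays read 8525, 8107 and 7726 (CLP 1, 3 and 5) and 8831, 8967 and 8239 (sham 1, 3 and 5). The classes did not overlap, but CLP 4 lay close to the high arrays. The difference was -1.17 ± 0.28 (log2, SE, limma adjusted p = 0.0179), and the call was lost without sham 2, at -1.03, and when no filter on dim probe sets was applied. Probe set 1452378_at stood further apart: it read 143, 243, 131 and 147 in CLP 2, CLP 4, sham 2 and sham 4, against 1295 to 1917 in the high arrays (-3.27 ± 0.16, limma adjusted p = 3.71e-06). Probe sets 1438403_s_at, 1418188_a_at and 1436202_at differed by -1.87, -1.66 and -1.26. The remaining Malat1 probe sets, 1429060_at and 1427285_s_at, did not pass, at -0.29 (limma adjusted p = 0.455) and -0.26 (0.102). In 1429060_at the low array CLP 4 read 2442, above 3 of the high arrays.

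**Figure D4:**
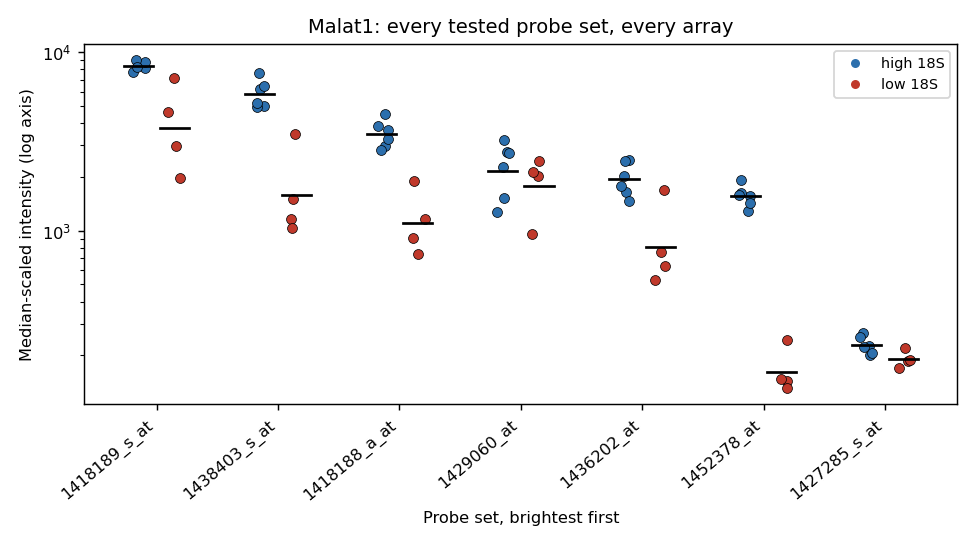
Median-scaled intensity (log axis) of the 7 tested Malat1 probe sets, brightest first, on each high (blue) and low (red) 18S array; bars are class means of log2 values. The classes are furthest apart in 1452378_at, 9.67-fold, and overlap in 1429060_at, 1436202_at and 1427285_s_at.

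The largest falls among genes whose classes did not overlap came from unlike parts of the cell. Trav12n-2, a variable segment of the T cell receptor α chain, read 409, 1391, 339 and 437 in CLP 2, CLP 4, sham 2 and sham 4, against 1842 to 2761 in the high arrays (-2.06 ± 0.33, limma adjusted p = 0.00231). CLP 4 again lay nearest the high arrays. Atp8a1, a phospholipid flippase, read 393, 637, 458 and 509 in the same low arrays and 1556 to 2267 in the high ones (-1.96 ± 0.14, limma adjusted p = 2.05e-05). Med1, a subunit of the Mediator complex, read 751, 856, 872 and 847 against 2034 to 2682 (-1.48 ± 0.081, limma adjusted p = 4.99e-06). In both genes the low arrays lay close together and far from the high ones.

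Zbed6, a transcription factor gene that lies inside an intron of another gene, differed by -1.94. Prrc2c, a large RNA-binding protein, differed by -1.87 and Dgkd, a diacylglycerol kinase, by -1.88. Taok1, a stress-responsive kinase, differed by -1.80, Fbxo32 (atrogin-1), a ubiquitin ligase subunit, by -1.68 and Tbl1x, a subunit of a corepressor complex, by -1.57. Pdpr, a regulator of the pyruvate dehydrogenase phosphatase, and Khnyn, a cofactor of an antiviral RNA-binding protein, differed by -1.56 and -1.49. All of these passed by limma. N4bp2l2 read 70 on CLP 2 and sham 4, which is the floor, so its difference of -1.94 is less certain in size.

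Most of the largest rises were smaller than the largest falls, and several began near the floor. Gsdme, a pore-forming gasdermin, read 1123, 959, 1281 and 1059 in CLP 2, CLP 4, sham 2 and sham 4, against 147 to 498 in the high arrays (2.02 ± 0.27, limma adjusted p = 0.000871). Chchd7, a small mitochondrial protein, read 911, 1916, 1264 and 1278 against 337 to 550 (1.54 ± 0.20, limma adjusted p = 0.000675). Cst3, the secreted protease inhibitor cystatin C, read 1353, 1153, 1221 and 1485 against 523 to 754 (1.03 ± 0.11, limma adjusted p = 0.000245). The low arrays of these genes lay clear of every high array, which the rule for naming the largest rises required.

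Urm1, a ubiquitin-like protein that donates sulfur to tRNA, was higher by 1.05 and Mpv17, a protein of the inner mitochondrial membrane, by 1.01. Cd300ld, a myeloid surface receptor, was higher by 1.26, Npn2 by 1.17, Arhgap26 by 1.15 and Cables1, a partner of cyclin-dependent kinases, by 1.08. Ctbp2, a corepressor, and Il21, a cytokine of follicular helper T cells, were higher by 0.96 each, and both calls were lost without sham 2, at 0.88 and 0.83. Igkv5-39, an immunoglobulin κ variable segment, was higher by 2.12, with 2 high arrays at the floor. Further tested probe sets did not pass for Urm1 (-0.16 to 0.25), Mpv17 (0.083), Arhgap26 (0.56 and 0.19) and Ctbp2 (0.29). Those of Chchd7 did pass, at 0.42 and 0.98.

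Probe sets of one gene often differed in what they showed. The comparison of probe sets was added after the data had been seen, and the genes named for it were chosen after their values were seen. Of 5360 genes with at least 2 tested probe sets, 1926 had at least 1 probe set called for low against high. Among these genes, 1379 had at least 1 lower probe set and 77 had all of theirs lower, while 688 had at least 1 higher and 26 had all higher. In 141 genes a probe set was lower and another one higher. Over all 27022 tested probe sets, 10.1% were lower and 4.99% higher.

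The log2 ratio of the 2 brightest probe sets of a gene differed between low and high arrays in 1027 of the 5360 genes (19.2%) by limma, and between CLP and sham arrays in 2.29% of them. Across genes, the differences of the brightest and of the next probe set had a Pearson r of 0.223 for low against high and 0.358 for CLP against sham, as descriptions. Where the brightest probe set differed at least 2-fold, in 51 genes, the next had the same sign in 37 (72.5%) and differed by less than 0.5 on the log2 scale in 40 (78.4%). Of 1613 genes with 1 or both of these probe sets called, both were called in the same direction in 212, in opposite directions in 54, and 1 alone in 1347 (83.5%). For CLP against sham the next probe set had the same sign in 16 of 21 genes (76.2%) and differed by less than 0.5 in 12 (57.1%). There, 1 probe set alone was called in 296 of 333 genes (88.9%).

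Ddx6, an RNA helicase of processing bodies, gave the ratio with the lowest p. Its brightest probe set, 1434697_at, read 3417 to 3760 in low and 3792 to 4123 in high arrays, a difference of -0.11 ± 0.071 (limma adjusted p = 0.327). Its probe set 1424598_at read 414, 473, 364 and 450 in CLP 2, CLP 4, sham 2 and sham 4, against 2427 to 3077 in the high arrays (-2.68 ± 0.098, limma adjusted p = 4.37e-07). That is a 6.40-fold lower signal. The remaining probe sets of Ddx6, 1439122_at and 1447789_x_at, were lower by -0.78 and -1.38, so 3 of its 4 tested probe sets were lower.

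Rap2b, a small GTPase of the Ras family, read 2157 to 2928 in low and 2008 to 2651 in high arrays with 1417914_at (0.094 ± 0.086, limma adjusted p = 0.507). With 1448885_at it read 122, 207, 133 and 168 in CLP 2, CLP 4, sham 2 and sham 4, against 1170 to 1969 (-3.20 ± 0.18, limma adjusted p = 4.99e-06). A further Rap2b probe set, 1439548_at, gave 0.14. Gsk3b, a kinase of the Wnt and insulin pathways, moved both ways: 1454958_at was higher in low arrays, by 0.66 ± 0.081, and 1437001_at was lower, by -1.02 ± 0.11 (limma adjusted p = 0.000499 and 0.000225). Its probe set 1451020_at was also lower, by -0.65, and 1434439_at higher, by 0.31 (limma adjusted p = 0.0431 and 0.0251). The remaining Gsk3b probe sets, at -0.43 and -0.25, did not pass.

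The 12 genes with the largest falls were divided in this respect. In 6 of them at least 1 further probe set was also lower: Zbed6 (-1.32), Prrc2c (-1.04 and -1.05), Pdpr (-1.15), Dgkd (-0.36), Med1 (-0.71 with 1421906_at) and Taok1 (-0.65 with 1426358_at and -1.15 with 1424658_at). Taok1 was also higher by 0.42 with 1426357_at (limma adjusted p = 0.0169) and gave -0.049 and -0.60 with the remaining 2, which did not pass, and Med1 gave 0.16 with 1448708_at and 0.00092 with 1447450_at. Pdpr also gave -0.28 and -0.032 and Prrc2c 0.058 with probe sets that did not pass. In 4 genes the brightest probe set alone passed: the others gave -0.25 to 0.064 for Atp8a1, 0.04 and -0.078 for Fbxo32, -0.16 and 0.082 for Khnyn, and -0.032 for Tbl1x. Trav12n-2 and N4bp2l2 had 1 tested probe set each. Arglu1, a splicing regulator, gave 0.072, which did not pass, and -1.82, which did. Stk26, a kinase, gave 0.30 and -1.50, and both passed (limma adjusted p = 0.0163 and 3.18e-05). The positions of the probes within the transcripts were not analysed here.

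Nuclear and noncoding RNAs did not form one direction. Of 15 measured nuclear noncoding RNAs 2 were lower (Malat1, and Ftx at -0.37) and 1 higher (Mirg, at 0.46). That is 13.3% and 6.67%, against 9.22% and 5.33% of all genes. Their median was -0.025, against -0.00068 over all genes. That median was 0.027 with scaling to the 75th percentile and 0.012 with quantile normalization. Xist, the RNA that coats the inactive X chromosome, gave -0.21 (limma adjusted p = 0.154). None of the 3 calls remained without sham 2. Over all annotated probe sets, 41 of 711 for long noncoding RNAs were lower (5.77%) and 26 higher (3.66%), against 10.8% and 5.3% of 21017 protein-coding ones. Of 14 host genes of small nucleolar RNAs none was lower and 3 were higher (Zfas1 0.40, Snhg6 0.50 and Snhg3 0.32), with a median of 0.15. The higher share was 21.4%, against 5.33% of all genes. None of these 3 genes was called without sham 2, sham 3 or sham 4.

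Splicing regulators that are known to keep introns were lower where they passed. Of 48 measured, 13 were lower and none higher (27.1% lower), with a median of -0.10. Of all genes 9.22% were lower, and 16.1% of the brightest 4358, whose median log2 level in high arrays was 10.24. The median level of this list was 11.28. The mean log2 signal of the list was 10.92 to 11.03 in low and 11.09 to 11.29 in high arrays, without overlap. Sfpq, a protein of paraspeckles, read 1068, 1332, 1324 and 1108 in CLP 2, CLP 4, sham 2 and sham 4, against 2755 to 4197 in the high arrays (-1.46 ± 0.11, limma adjusted p = 3.02e-05). Of its 6 tested probe sets, 1423795_at was also lower, by -0.70 (limma adjusted p = 0.0114), and the other 4 gave -0.39 to 0.016. Acin1, a factor of the exon junction, was lower by -0.96, Clk2, a kinase of splicing factors, by -0.90 and Nktr, a cyclophilin-related protein, by -0.77. The count of lower members was 8 without sham 2, where the count over all genes was 535 in place of 1205. It was 19 when the probe sets of each gene were averaged, with a median of -0.27.

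Genes of very large proteins, whose messages are long, had more lower than higher members among those that passed. Of 68 measured, 18 were lower and 4 higher (26.5% and 5.88%, against 9.22% and 5.33% of all genes), with a median of -0.074. With scaling to the 75th percentile 13 were lower and 8 higher, with a median of -0.023, and without CLP 1 the median was -0.044. Ubr4, a ubiquitin ligase, was lower by -0.75 ± 0.097, Vps13d, a lipid transfer protein, by -0.66, Nipbl, the cohesin loader, by -0.60 and Cep350, a centrosomal protein, by -0.58. The higher members were Chd8, Chd7, Eea1 and Rif1, named here after their values were seen. Without sham 2 the count was 9 lower and 2 higher, without sham 3 it was 11 and 3, without sham 4 it was 10 and 2, and 12 were lower without sham 5. Over all genes these counts were 535 and 280, 813 and 449, 664 and 277, and 991 lower. The genomic span of a gene, introns included, gave no steady rise in the share of lower genes. That share was 6.33% for spans up to 5 kb, 10.7% for 20 to 50 kb and 4.19% above 200 kb. The share of higher genes in these was 5.06%, 5.04% and 6.04%. It was 7.14% for 50 to 100 kb and 6.91% for 100 to 200 kb. Genes were also divided by level, and spans over 100 kb set against those under 20 kb. The share lower was 1.95% against 2.75% in the dimmest, 6.14% against 8.46% in the middle and 13.5% against 17% in the brightest. The share higher was 3.91% against 3.01%, 7.13% against 4.35% and 9.47% against 6.94%. These differences were not tested.

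**Figure D5:**
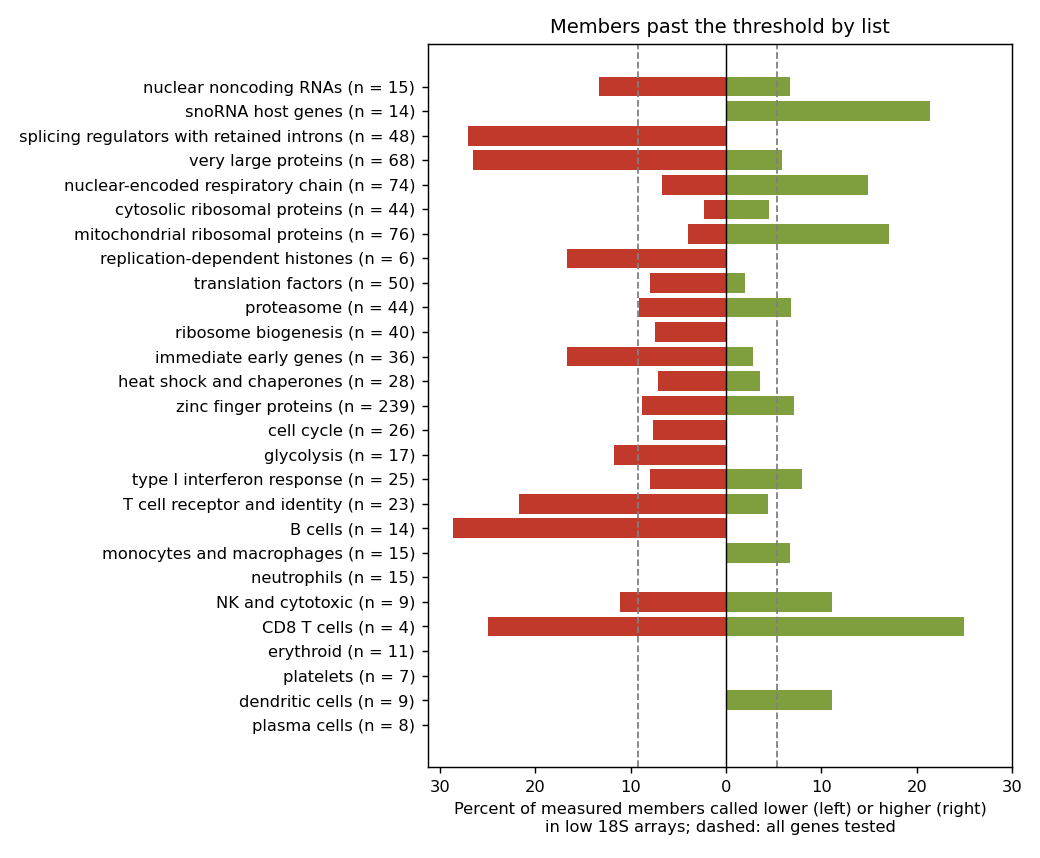
Percent of the measured members of each list that were lower (red, left) or higher (green, right) in low 18S arrays by limma, with n measured in brackets; dashed lines give the share of all 13073 genes, 9.22% lower and 5.33% higher. The splicing list reaches 27.1% lower and the mitochondrial ribosomal list 17.1% higher.

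Mitochondrial genes included more higher than lower members among those that passed. Of 76 mitochondrial ribosomal proteins 13 were higher and 3 lower (17.1% and 3.95%, against 5.33% and 9.22% of all genes), with a median of 0.094. Mrps15 read 894, 899, 1276 and 1223 in CLP 2, CLP 4, sham 2 and sham 4, against 471 to 760 in the high arrays (0.80 ± 0.091, limma adjusted p = 0.000289). Mrpl45 and Mrpl27 were higher by 0.93 and 0.86, and Mrpl22 was lower by -0.40. Leaving out CLP 2 gave 6 higher and 6 lower members and a median of -0.031. There were 4 higher members without sham 4, 7 without sham 2 and 7 without sham 3, while 20 were higher without CLP 4. Over all genes the higher count moved the same way, from 697 to 277, 280, 449 and 943 in these settings.

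Of 74 nuclear-encoded subunits of the respiratory chain 11 were higher and 5 lower (14.9% and 6.76%, against 5.33% and 9.22% of all genes), with a median of 0.092. Ndufa10, a subunit of complex I, read 2906, 2512, 2478 and 2476 in CLP 2, CLP 4, sham 2 and sham 4, against 1407 to 1764 (0.74 ± 0.083, limma adjusted p = 0.000264). Ndufa12, also of complex I, was higher by 0.45, Atp5md, of the ATP synthase, by 0.44, and Cox8a, of cytochrome c oxidase, was lower by -0.44. The higher members numbered 4 without sham 2, 6 without sham 3 and 5 without sham 4, where 280, 449 and 277 of all genes were higher. Without CLP 2 there were 8 higher and 6 lower, with a median of 0.0089, and without CLP 4 13 were higher, with a median of 0.14. For RNA made in mitochondria 1 gene was measured, ND5, which read 5189 to 6073 in low and 5737 to 6278 in high arrays (-0.088, limma adjusted p = 0.454).

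Cytosolic ribosomal proteins showed few calls. Of 44 measured, 1 was lower (Rpl7l1, -0.59) and 2 higher (Rps27l, 0.57, and Rps24, 0.28). That is 2.27% lower and 4.55% higher, against 9.22% and 5.33% of all genes. The median was 0.027, and -0.0045 without scaling. The mean log2 signal of the list was 12.40 to 12.57 in low and 12.31 to 12.56 in high arrays, so the classes overlapped. Rps24 lost its call without CLP 2, CLP 5, sham 1, sham 2, sham 3 or sham 4, at 0.25 to 0.27. Of 40 ribosome biogenesis genes 3 were lower (Ubtf, the activator of ribosomal RNA synthesis, -0.35, Bysl -0.32 and Nolc1 -0.73) and none higher. The lower share, 7.5%, was near the 9.22% of all genes. None of these 3 genes was called without sham 2 or sham 4. Translation factors gave 4 lower and 1 higher of 50 (8% and 2%), none of them called without sham 2.

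For the lists that follow, 9.22% lower and 5.33% higher is the share over all genes. With an array left out the counts over all genes also change, as to 535 lower and 280 higher without sham 2. Proteasome genes gave 4 lower and 3 higher of 44 (9.09% and 6.82%), with Psma7 higher by 0.91 and Psmc1 lower by -0.59, both subunits of the same particle, and 2 and 2 without sham 2 or sham 4. Zinc finger proteins gave 21 lower and 17 higher of 239 (8.79% and 7.11%), with Zfp592 lower by -1.29, and 8 lower and 11 higher without sham 2, 13 and 14 without sham 3 and 9 and 13 without sham 4. Of 36 immediate early genes 6 were lower (16.7%), among them Klf2 (-0.48), Klf6 (-0.53) and Btg2 (-0.74), and Fos was higher by 0.69. Without sham 2, sham 3 or sham 4 in turn, 4 were lower. Heat shock genes gave 2 lower and 1 higher of 28 (7.14% and 3.57%), none of them called without sham 2 or sham 4, and 5 were higher without CLP 4. Glycolysis gave 2 lower and 0 higher of 17 (11.8% lower), with 4 lower without CLP 2 and none without sham 2. The type I interferon response gave 2 and 2 of 25 (8% each way), with 5 lower without CLP 4.

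Cell cycle genes had a median of 0.16 (0.39 in sham arrays alone and -0.074 in CLP arrays alone), and 7 of 26 had a lower mean in low arrays. Of the 26, 2 were lower (7.69%) and none higher. Without CLP 4 there were 7 higher and 2 lower, with a median of 0.33, and array weights also gave 7 higher. Replication-dependent histones gave 1 lower of 6, with no call without CLP 2, CLP 3, CLP 5, sham 2, sham 3, sham 4 or sham 5 in turn.

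Genes of the T cell receptor and T cell identity included lower members. Of 23 measured, 5 were lower and 1 higher (21.7% and 4.35%), with a median of -0.18. Of all genes 9.22% were lower and 5.33% higher, and 16.1% and 7.82% of the brightest 4358. The median log2 level of the list in high arrays was 10.98. Cd3g, a chain of the CD3 complex, read 1164, 1423, 1448 and 1848 in CLP 2, CLP 4, sham 2 and sham 4, against 1990 to 3594 (-0.85 ± 0.11, limma adjusted p = 0.000704). Thy1, the surface protein CD90, and Lef1, a T cell transcription factor, were lower by -0.85 and -0.50. Cd4, which the purification kept, read 1432 to 1613 in low and 1649 to 2400 in high arrays (-0.32, limma adjusted p = 0.0526), and Cd3e gave 0.042 (0.791). The defining markers were therefore present on all arrays. Without CLP 3, sham 2, sham 3 or sham 4 in turn, 3 members were lower. In bulk RNA, fewer cells of a type and less RNA per cell cannot be told apart.

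Markers of B cells were lower where they passed, in 4 of 14 (28.6%, against 9.22% of all genes), with none higher and a median of -0.36. With the probe sets of each gene averaged 1 was lower and 1 higher. H2-Aa, a class II antigen presentation chain, read 2600, 2498, 1876 and 1743 in CLP 2, CLP 4, sham 2 and sham 4, against 3379 to 6362 (-0.99 ± 0.15, limma adjusted p = 0.00166). H2-Ab1 and H2-Eb1, also class II chains, were lower by -0.79 and -0.68, and H2-Eb1 lost its call in 18 of 27 other settings. Class II chains are not confined to B cells. The remaining call was Cd79a, at -0.84 (limma adjusted p = 0.0488), which lost its call in 15 of 27 other settings. H2-Aa was called whichever array was left out, whereas 1 member in all was called without sham 4. There were 2 without CLP 1, CLP 3, CLP 4, sham 1, sham 2 or sham 3 in turn, and 6 without CLP 5. The mean log2 signal of the list was 9.06 to 9.36 in low and 9.27 to 10.12 in high arrays, with CLP 1 highest.

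Immunoglobulin and T cell receptor segments went otherwise: of 36 probe sets 1 was lower (Trav12n-2) and 9 were higher (25%, against 4.99% of all probe sets), with a median of 0.25. The 9 were those of Igkv5-39, Igkv9-120, Igkv6-15 and Igkv19-93 and 5 of the probe sets of Ighm, the constant region of immunoglobulin M, at 0.98 to 1.65. The brightest Ighm probe set, 1427351_s_at, gave 0.093 (limma adjusted p = 0.503). These segments share sequence, so single segments are uncertain. Plasma cell markers gave no call in 8, and 1 higher without CLP 4.

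Neutrophil markers gave no call in 15, with 1 lower without CLP 1 and 2 higher without CLP 4. Their levels varied: the list mean was 9.65 in CLP 1 and 9.15 in sham 1, both high arrays, and 7.98 to 8.47 in the others. Lcn2, a neutrophil granule protein, was 95 to 116 in low and 117 to 2339 in high arrays (-1.75, limma adjusted p = 0.0901). Monocyte and macrophage markers gave 1 higher of 15 (Csf1r, 0.43), with list means of 7.80 to 7.94 in low and 7.75 to 8.45 in high arrays. NK and cytotoxic markers gave 1 lower and 1 higher of 9, CD8 T cell markers 1 and 1 of 4, dendritic cell markers 1 higher of 9, and platelet markers no call in 7. The calls of these lists came and went with single arrays: NK and cytotoxic markers gave none without CLP 1, CLP 4 or any 1 of sham 2 to 5, and the monocyte, dendritic and CD8 lists each lost a call when some single arrays were left out. Erythroid markers gave no call in 11 (median 0.094), but 4 were higher without CLP 4 and 5 with array weights, with medians of 0.22 and 0.42. The part of these marker levels in the low against high difference was not tested.

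The low against high difference was also compared between CLP and sham mice. By limma no gene passed for an interaction of class and surgery (0%), with 222 genes (1.7%) at an unadjusted p under 0.05. Without CLP 2 there were 56, and with no filter on dim probe sets 4. The genes with the lowest p were Mid1 (0.43 in CLP and -1.56 in sham arrays), 1500035N22Rik, Cxcl2, a neutrophil chemokine (-1.93 and -0.20, with 5 arrays at the floor), Pde4dip, Ighg3 and Sfrp2.

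Taking the class into account changed the study's own comparison of CLP with sham mice. With the class as a covariate 88 genes were higher and 267 lower in CLP mice by limma, 2.72% of genes either way. Without it there were 26 and 72, or 0.75%. All 98 genes called without the class were among the 355 called with it, 27.6% of these. Of the 355 genes, 83 (23.4%) were also called for low against high, against 14.5% of all genes. Among the brightest 4358 genes 16.1% were lower and 7.82% higher in low arrays. Both calls use the same variance estimate of a probe set, and the overlap was not compared at matched levels. The counts with the class rested on single arrays: they were 7 higher and 16 lower without sham 4, 226 genes were higher without CLP 4 and 510 lower without CLP 1.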

How the data were processed

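RNA was measured on 10 Affymetrix arrays. For each array the authors deposited 1 linear intensity per probe set. How background was corrected, whether arrays were scaled and with what software is not given in the sources used here. The label text names biological replicates from individual mice, so the spread is read as that between mice. The classes, members and gene lists were chosen with earlier results of these data known.

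Arrays were scaled to the same median, a floor was set at the 25th percentile over all arrays (70.4), and log2 was taken. Of 45101 probe sets, the 64 controls and those with a mean under the 40th percentile were dropped; 27022 remained, with 0.132% of values at the floor. A platform annotation table gave 34945 probe sets 1 symbol, 932 several and 9160 none. Symbols, gene kinds and spans were looked up in RefSeq (GRCm38.p6). The brightest tested probe set with 1 symbol stood for each of 13073 genes. A linear model of class and surgery was fitted in limma 3.58.1 (R 4.3.3), with Benjamini-Hochberg adjustment over the 27022 probe sets and a threshold of 0.05. SE is limma's. Array measures were compared by exact permutation. The fit was tested on simulated data. Figures were drawn with matplotlib 3.10.9.

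Genes were named by rule: the 12 largest rises and falls among called genes whose classes did not overlap, clone-like names left out; up to 4 members of lowest p of each of 28 lists; Malat1; the control probe sets; and up to 6 genes of lowest interaction p. Chd8, Chd7, Eea1, Rif1, the Ighm and Ig segment probe sets and the genes of the probe set comparison were chosen after their values were seen. Alternatives were other scalings, filters and floors, averaged probe sets, array weights, a variance trend, no surgery covariate, a replicate block, each surgery alone, other 18S measures and leaving out each array.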

Additional observations from a re-analysis of the deposited data

Results flagged for a closer look

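Among 162 sets of 4 or 6 arrays of one class, Dixon's test at its 95% critical value set apart 1 array in 6 (3.7%), and chance alone sets one apart in about 1 of 20. In low arrays CLP 2 had the highest Gapdh 5′ intensity, 391.9, against 186 to 199 in the others. Also in low arrays, sham 4 had the highest β-actin middle intensity, 3907, against 3132 to 3260, and the highest log2 level of Actb, 13.29, against 13.14 to 13.16. In high arrays sham 1 had the largest share of probe sets at or under the floor, 26.3%, against 24.9% to 25.3%, and the highest mean of the CD8 T cell list, 7.67, against 7.52 to 7.56. The mean of the NK and cytotoxic list was highest in CLP 5 among high arrays, at 8.81, against 8.64 to 8.69.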

How the results depend on the processing

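The counts of low against high genes moved with array weights (2182 lower, 1653 higher) and with each surgery alone (CLP 10 and 1, sham 742 and 435). Over arrays left out in turn they ran from 535 to 1253 lower and from 277 to 943 higher. Classes drawn from the 5′ or 3′ 18S probe set were identical, and the log2 18S signal as a regressor gave 1324 lower and 715 higher. With no filter on dim probe sets the interaction gave 4 genes, CLP against sham with the class 4 higher and 17 lower, and without it 0 and 1. With probe sets of a gene averaged these were 56 and 174, and 12 and 41. Averaging moved the medians of snoRNA hosts to 0.027, splicing regulators to -0.27 and very large proteins to -0.16. CLP arrays alone gave medians of 0.068 for snoRNA hosts and -0.092 for histones, and sham arrays alone 0.26 for snoRNA hosts. With arrays left out, CLP against sham ran from 7 to 226 higher and 16 to 510 lower with the class, and 0 to 69 and 2 to 177 without, and the interaction from 0 to 56. Low minus high ran from -0.54 to -0.34 for the Gapdh 3′ to middle ratio, 0.258 to 0.41 for that of β-actin, -795 to -184 for Gapdh 3′, -754 to -469 for β-actin 5′, -663 to 254 for the B1 repeat and -1.05 to -0.721 for the percent at the floor. Over 94 named genes that were called, none changed sign, which their choice as called genes made likely. Many lost the call in some settings, most often H2-Eb1 (18 of 27 settings), H2ac19 (16) and Cd79a (15).

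Replicate numbers were not taken to pair the mice: correlations of same-numbered deviations were 0.176, 0.582, 0.384, 0.181 and 0.0633, and -0.131, -0.0667, -0.0395, -0.456 and -0.4 once the class was taken out. The classes are nested in the number, so low against high cannot be fitted with it as a fixed block. As a random replicate block it gave 1486 lower and 983 higher genes, and the fixed replicate block in place of the class gave 44 higher and 75 lower for CLP against sham. Signal near the floor limits the folds of dim genes.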
